A study of Rattus norvegicus with 8 samples.

Results

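Every polyadenylated messenger RNA is cut at its 3′ end and given a poly(A) tail by a set of nuclear protein complexes. The 10 genes described here encode core parts of that set: Nudt21 and Cpsf6 of cleavage factor I, Cpsf2, Fip1l1 and Wdr33 of the cleavage and polyadenylation specificity factor, Cstf3 and Cstf2t of the cleavage stimulation factor, Pcf11 of cleavage factor II, the poly(A) polymerase gene Papola, and Pabpn1, the nuclear poly(A) binding protein gene. They were chosen by symbol, and all site rows with one of these symbols were taken, which gave 53 of the 73922 polyadenylation sites in the table and 10 of its 12255 genes. The members held 10807 of 13341135 reads.

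The libraries were made by whole transcriptome termini site sequencing (WTTS-seq), which counts 1 read for each sequenced 3′ end of polyadenylated RNA. Each of the 8 libraries came from the hypothalamus of 1 adult male Long-Evans rat. The control group of 4 rats ate standard chow with 0.51 kcal per g from fat, and the diet-induced obesity group of 4 rats had free access to a high fat diet with 1.71 kcal per g from fat. Tissue was taken after 36 days of diet in both groups, no rat is labelled with a transgene, and body weights were not analysed here. Libraries and rats carry the numbers 1 to 4 within each group.

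In cleavage and polyadenylation, the specificity factor recognises the AAUAAA signal through Wdr33 and its partners, and Fip1l1 brings in the poly(A) polymerase. The cleavage stimulation factor binds the downstream GU-rich element, and cleavage factor I binds UGUA elements upstream. Most genes carry more than 1 such site, and the amounts of these factors are known to shift the choice between them: lower Nudt21 is known to favour proximal sites, and Pabpn1 and Pcf11 are known to act on site choice as well. The comparison here asks whether the 3′ end reads of these genes, their own site choice, or both differed between the diets, beside the use of the most 3′ site over all genes in each library.

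Library totals ran from 1417531 to 1957726 reads. Of 12 hypothalamus markers, 10 had reads, and Ghrh and Tac2 were at 0 under these symbols, while the 3 testis markers were at 0 in all libraries. Mitochondrial genes took 5.32% to 8.27% of the reads in control and 3.85% to 6.99% in obesity. Marker sums of other cell types varied by library: 6 anterior pituitary markers summed to 15.5 to 46.2 CPM (read counts scaled to a common library total, here of all reads) in control and 5.14 to 107 in obesity, with Prl, Tshb and Fshb at 0. The 3 choroid plexus markers summed to at most 1.29 CPM in control and reached 82.2 in obesity library 4 alone, with Folr1 and Kl at 0. The 9 oligodendrocyte markers summed to 14479 to 20014 CPM in control and 10253 to 18011 in obesity. Control library 1 and obesity library 1 had 14788 and 10659 sites at 0 reads, against 4062 to 6622 in the other 6. The part of these values in the results below was not tested. In whole tissue, fewer cells of a type and less RNA per cell cannot be told apart.

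The 10 genes differed widely in their number of 3′ ends. Pabpn1 had the most reads, 4303 over the 8 libraries, and Nudt21 the fewest, 58. Nudt21 rested on 1 listed site. The table listed no site under 30 reads in total, and ends below that limit or not assigned to a gene are not in its sum. Levels of genes are given as CPM of the gene sum over the scaled total of all gene sums, with no division by length, since a transcript gives 1 read wherever it ends. Pabpn1 averaged 386 CPM over the 8 libraries, more than 96.8% of genes, and took 40.4% of the summed CPM of the 10 members. Cpsf6 followed at 159 CPM, then Fip1l1 at 97.1, Wdr33 at 86.4, Papola at 71.1, Cpsf2 at 67.9, Pcf11 at 48.7, Cstf2t at 21.6, Cstf3 at 12.3 and Nudt21 at 5.21 CPM. Nudt21 lay above only 17.2% of genes.

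Between neighbours in that order, Pabpn1 was above Cpsf6, Cpsf6 above Fip1l1 and Wdr33 above Papola in 8 of 8 libraries. The ranges of Pabpn1 and Cpsf6 did not overlap, and those of all later neighbours did. Papola was above Cpsf2 in 4 of 8 libraries. Cstf2t was also above Cstf3 in 4 of 8. These 2 genes were level in control library 3 (17.9 CPM each) and obesity library 4 (8.85 CPM each). Cstf3 was the higher in control library 4 and obesity library 3. Fip1l1 was above Wdr33 in 6, Cpsf2 above Pcf11 in 6, Pcf11 above Cstf2t in 7 and Cstf3 above Nudt21 in 5 of 8 libraries.

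**Figure D1:**
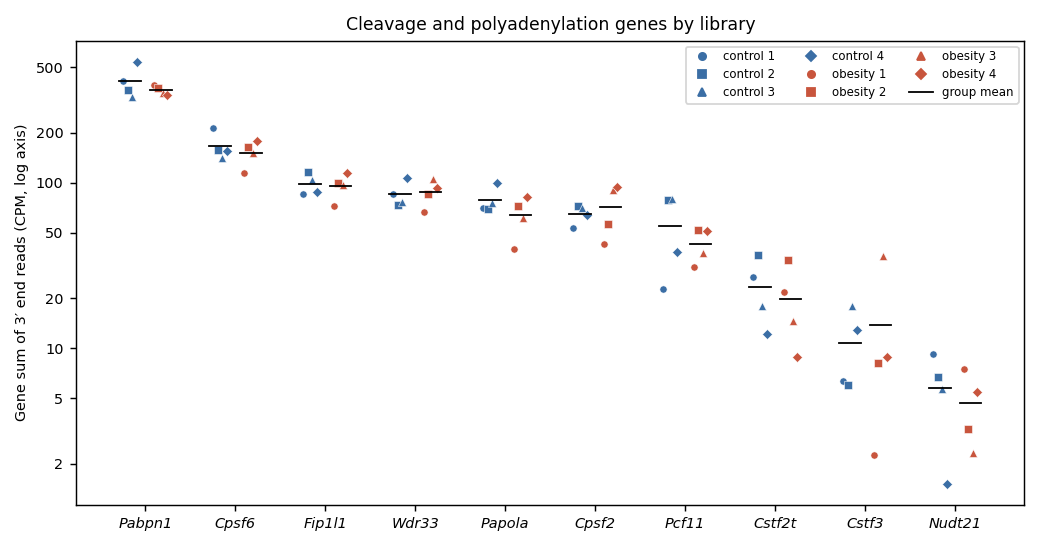
Gene sums of the 10 cleavage and polyadenylation genes in CPM on a log axis, with 1 point per library (control blue, obesity red, shapes for library numbers) and a black line at each group mean. Pabpn1 sits near 386 CPM and Nudt21 near 5.21 CPM, and the control and obesity points overlap for every gene.

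No member differed between the groups by the test across all genes. With edgeR's quasi-likelihood test on gene sums, 0 of 10 members passed an adjusted p of 0.1, where 0 of 12255 genes passed (0%). An unadjusted p under 0.05 was found for 0 of 10, where 627 of 12255 genes did (5.12%). The DESeq2 Wald test passed 4 genes and had 720 at an unadjusted p under 0.05, and 0 members in either. Obesity was below control in the fitted difference of 7 members and above it in 3. The median log2 fold change of the members was -0.16, beside 0.00 over all genes, of which 49.9% were below control. It ran from -0.18 without obesity library 2 to -0.054 without control library 1, and 10 of 10 members were below control without obesity library 3. The groups overlapped for all 10 members, and 3.45% of all genes had groups that did not overlap.

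The summed level of the 10 members was 985, 975, 921 and 1116 CPM in controls 1 to 4 and 789, 947, 942 and 973 CPM in obesity rats 1 to 4. It was lowest in obesity library 1, and the other 3 obesity libraries lay inside the control range.

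Nudt21 is the subunit of cleavage factor I that reads the UGUA element. Its site, chr19:11465270-11465287 (Rnor_6.0, plus strand), held 13, 10, 7 and 2 reads in controls 1 to 4 and 10, 4, 4 and 8 reads in obesity rats 1 to 4. The lowest and the highest library were both controls. The level was 5.78 ± 3.20 CPM in control and 4.64 ± 2.32 in the obesity group (SD, n = 4), a log2 fold change of -0.32 (edgeR adjusted p 0.991, SE 0.79). The 95% interval ran from 0.252-fold to 2.54-fold, so at this depth a change of either size could not be told from none. Without control library 1 the log2 fold change was -0.0088.

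Cpsf6 is the larger partner of Nudt21 in the same factor. Its gene sum was 213, 157, 141 and 156 CPM in controls 1 to 4 and 115, 165, 151 and 178 CPM in obesity rats 1 to 4. Control library 1 was the highest and obesity library 1 the lowest, with the other 6 between them, and obesity was above control in 3 of the 4 numbers. Obesity against control gave a log2 fold change of -0.13 (edgeR adjusted p 0.983, SE 0.22, 95% interval -0.60 to 0.33). Cpsf7, the paralog that can take the place of Cpsf6 beside Nudt21, had 27.6 ± 8.03 CPM in control and 31.5 ± 9.12 in the obesity group (SD, n = 4), with a log2 fold change of 0.19 (SE 0.36). Cpsf6 was above Cpsf7 in 8 of 8 libraries, with means that differed 5.39-fold.

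Of the specificity factor, Cpsf2 encodes a scaffold subunit close to the endonuclease. Cpsf2 had 53.1, 72.3, 70.7 and 63.8 CPM in controls 1 to 4 and 42.8, 56.0, 90.2 and 94.6 CPM in obesity rats 1 to 4. The obesity libraries lay on both sides of the control range, library 1 below it and libraries 3 and 4 above it. Its log2 fold change was 0.13 (edgeR adjusted p 0.988, SE 0.29). Fip1l1 had 98.4 ± 14.6 CPM in control and 95.8 ± 17.7 in the obesity group (SD, n = 4), and Wdr33 had 85.4 ± 15.4 and 87.4 ± 16.3. Their log2 fold changes of -0.04 (SE 0.23) and 0.04 (SE 0.24) were the smallest of the 10 members. The 95% intervals were 0.693-fold to 1.37-fold for Fip1l1 and 0.719-fold to 1.46-fold for Wdr33.

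Cstf3 encodes the scaffold of the cleavage stimulation factor. Its reads numbered 9, 9, 22 and 17 in controls 1 to 4 and 3, 10, 62 and 13 in obesity rats 1 to 4. A single library, obesity 3, held more of its reads than any other, and its level in CPM spanned 16.1-fold between the lowest and the highest library, the widest range of the 10 genes. Its fitted difference was 0.39 on the log2 scale (edgeR adjusted p 0.983, SE 0.68). It was -0.73 without obesity library 3, and 0.01 with the library number as a block.

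Cstf2t is the autosomal, intronless copy of the RNA binding subunit gene Cstf2. Its gene sum was 26.9, 36.8, 17.9 and 12.2 CPM in controls 1 to 4 and 21.8, 34.1, 14.6 and 8.85 CPM in obesity rats 1 to 4. The 4 numbers kept the same order in both groups, library 2 the highest and library 4 the lowest, and each obesity library lay below the control library of its number. On the log2 scale the difference was -0.25 (edgeR adjusted p 0.983, SE 0.47), and -0.28 with the number as a block (edgeR adjusted p 0.861). Cstf2 had 16.3 ± 3.79 CPM in control and 15.995 ± 9.68 in the obesity group (SD, n = 4). Cstf2t was above Cstf2 in 5 of 8 libraries, so the order of the 2 copies was not settled at this depth.

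Pcf11 links the cleavage machinery to the end of transcription. Its gene sum was 22.7, 78.3, 79.7 and 38.0 CPM in controls 1 to 4, a range wider than that of the obesity libraries at 30.8, 52.0, 37.5 and 51.0 CPM. The log2 fold change was -0.35 (edgeR adjusted p 0.968, SE 0.37, 95% interval -1.14 to 0.43), and it ran from -0.61 without control library 1 to -0.11 without control library 3.

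Papola encodes the polymerase that adds the tail. It had 70.1, 68.9, 75.6 and 99.6 CPM in controls 1 to 4 and 39.8, 72.2, 60.9 and 81.7 CPM in obesity rats 1 to 4. Obesity library 1 was the lowest, and 3 of 4 obesity libraries lay below the control library of the same number. In the fit its log2 fold change was -0.30 (edgeR adjusted p 0.958, SE 0.27), the lowest adjusted p of the 10 genes, and -0.33 with the block (edgeR adjusted p 0.659). It was -0.13 without obesity library 1.

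Pabpn1 coats the growing tail and sets its length. It had 413, 361, 332 and 537 CPM in controls 1 to 4 and 391, 373, 347 and 337 CPM in obesity rats 1 to 4. The obesity values were close together and lay within the control range. The log2 fold change was -0.18 (edgeR adjusted p 0.968, SE 0.20), and the 95% interval of 0.661-fold to 1.17-fold leaves out a halving of this gene. Without control library 4, its highest, the value was -0.027.

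**Figure D2:**
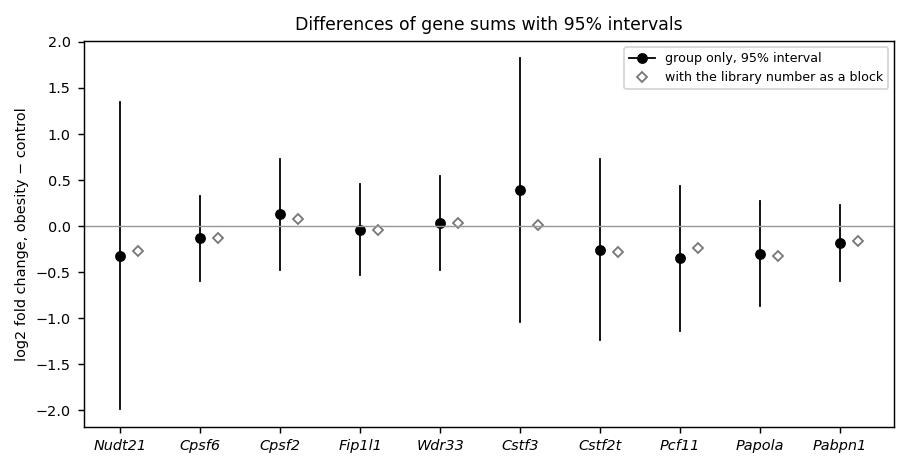
Log2 fold change of obesity against control for each gene sum, with its 95% interval from the fit across all genes (filled circles and lines), and the value with the library number as a block (open diamonds). Every interval holds 0, from Pabpn1 at -0.18 with the narrowest interval to Nudt21 at -0.32 with the widest.

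These genes are themselves cut at many sites. The 51 sites on the main strand of the members numbered 1 in Nudt21, 2 each in Cpsf2, Cstf3 and Cstf2t, 5 each in Papola and Pabpn1, 6 each in Cpsf6 and Pcf11, 9 in Fip1l1 and 13 in Wdr33. The other 2 rows, under Pcf11 and Papola, lay on the opposite strand and were kept out of gene sums. The median member had 5 sites and the median gene 2, and only 7.02% of genes had more sites than Wdr33. Of the 9 members with more than 1 site, 7 had their most read site upstream of the last one, as had 64.7% of 7996 genes. Papola and Fip1l1 were the exceptions.

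In Pabpn1 the most used site, chr15:33559381-33559447 (Rnor_6.0, plus strand), took 76.6% of 4303 reads. The next site, chr15:33559477-33559502, began 30 bases further on and took 19.5%, and the most 3′ site, chr15:33560242-33560254, took 1.02%. The most used site took 85.9%, 64.7%, 78.7% and 66.5% of the gene in controls 1 to 4 and 83.1%, 77.1%, 85.0% and 73.5% in obesity rats 1 to 4. These shares were higher in libraries 1 and 3 than in libraries 2 and 4 in both groups. The interval from counting alone was 82.9% to 88.5% in control library 1 and 60.6% to 68.7% in control library 2 (95% Wilson). Summed, the adjacent pair took 94.0% to 97.8% of Pabpn1 reads in the 8 libraries, so the spread lay almost wholly between the neighbours. The SD over the 8 libraries was 1.09 percentage points for the pair and 8.07 for the most used site alone.

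Cpsf6 showed a like arrangement, on the minus strand of chromosome 7. Its most used site, chr7:60388846-60388850, took 52.9% of 1789 reads, and the next, chr7:60388754-60388786, lay 60 bases away and took 32.6%. The last assigned site, chr7:60383942-60383944, took 1.96%. The second of these had 153, 77, 44 and 78 reads in controls 1 to 4 and 77, 43, 54 and 58 reads in obesity rats 1 to 4. Control library 1 stood above the rest. The fitted log2 fold change was -0.68 (SE 0.38, unadjusted p 0.0942 and adjusted p 1.00 by edgeR), and with the number as a block -0.62 (unadjusted p 0.0447, edgeR adjusted p 0.802). It was the 1 member site of 53 at an unadjusted p under 0.05 with the block, where 6.09% of all sites were. The pair together took 83.9 ± 9.18% of the gene in control and 86.2 ± 11.6% in the obesity group (SD, n = 4).

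Such close neighbours were found in 5 of the 9 members with more than 1 site, in 6 groups with at most 100 bases between sites. Over all genes with more than 1 site 32.3% held such a group, but members have more sites: counted by neighbouring sites, 7 of 41 pairs in members and 11.8% of 50577 pairs over all genes were that close. This count was made after the values were seen. In Wdr33, 11 bases separated chr18:24630302-24630319 from chr18:24630330-24630342, the most used site of the gene with 18.6% of 973 reads. The first of them had 0, 0, 4 and 17 reads in controls 1 to 4 and 0, 0, 0 and 45 in obesity rats 1 to 4, and the second had 36, 17, 26 and 26, then 12, 31, 28 and 5. The first therefore had most of its reads in both libraries numbered 4, and the second had its lowest count in obesity library 4. In Pcf11, 3 sites within the most 5′ group on chromosome 1 took 72.8% of 541 reads. The most used of them, chr1:157485617-157485641, took 29.2%.

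**Figure D3:**
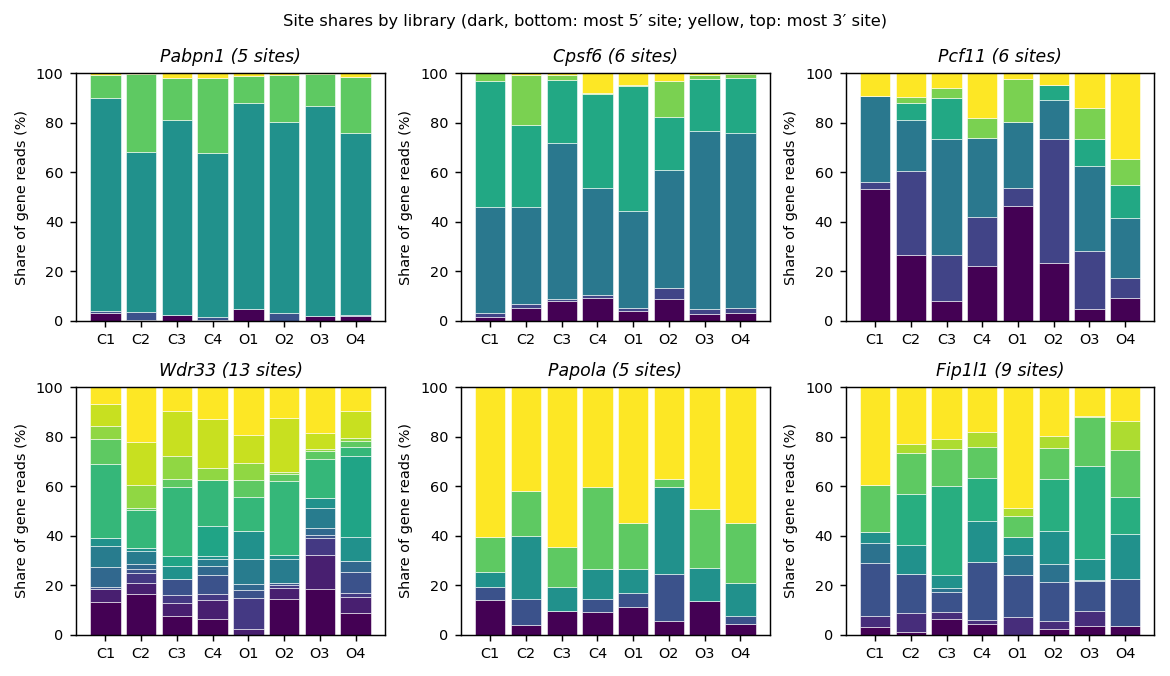
Share of gene reads at each main-strand site in each library (C1 to C4 control, O1 to O4 obesity) for 6 members, stacked from the most 5′ site at the bottom to the most 3′ site at the top. In Pabpn1 the 2 middle sites fill 94.0% to 97.8% of every bar, and in Fip1l1 the bars of C1 and O1 resemble each other, without the site that is at 0 reads in both.

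Tested site by site, 0 of 53 member sites passed an adjusted p of 0.1 by edgeR, where 0.00135% of the 73922 sites did. The count at an unadjusted p under 0.05 was 0, where 3.14% of all sites were. DESeq2 called 10 sites in all, none of them a member's, and had 0 member sites at an unadjusted p under 0.05. The groups overlapped at all 53, and did not at 3.11% of all sites. Of the fitted differences, 21 were above 0 and 32 below, from -1.77 to 1.19 on the log2 scale. The lowest unadjusted p, 0.0679, was that of a Wdr33 site, chr18:24641974-24641991, named for that value after it was seen, with 6, 10, 9 and 7 reads in controls 1 to 4 and 6, 1, 1 and 2 in obesity rats 1 to 4. Obesity library 1 was within the control range in reads and the other 3 were below it. Most member sites were thinly read, 30 of 53 with fewer than 100 reads over the 8 libraries.

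Site usage within each gene was tested with diffSpliceDGE of edgeR, which asks whether a site differs from its gene. Among the 9 members with more than 1 site, 0 passed an adjusted p of 0.1 and the unadjusted Simes p was under 0.05 in 0, where 1.36% of 7996 genes did and 0 passed the adjusted threshold. The members' unadjusted Simes p values lay between 0.697 for Cstf3 and 0.995 for Fip1l1. Without obesity library 2 the value of Pabpn1 was 0.0433, and without obesity library 4 that of Wdr33 was 0.0381 (unadjusted, edgeR), with an adjusted p of 1.00 in both.

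The share of reads at the most 3′ site differed more between members than between diets. Papola used its last site, chr6:129661972-129662002 (plus strand), for 60.6%, 41.7%, 64.5% and 40.5% of its reads in controls 1 to 4 and 54.7%, 37.1%, 49.0% and 55.0% in obesity rats 1 to 4. The means of 51.8 ± 12.5% and 49.0 ± 8.38% (SD, n = 4) differed by less than either spread (2-sided exact permutation p 0.714). Fip1l1 used its last site, chr14:36150656-36150692 (minus strand), for 39.7%, 23.0%, 21.1% and 18.3% in control and 49.0%, 19.7%, 11.4% and 13.6% in obesity rats 1 to 4. Library 1 was the highest in both groups. In those same libraries the sixth Fip1l1 site, chr14:36160827-36160829, had 0 of 121 and 0 of 96 reads, which allows a share of up to 2.48% and 3.13%, against 14.8% to 37.3% in the other 6.

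Wdr33 used its last site, chr18:24674363-24674384, for 12.8 ± 6.66% of reads in control and 14.9 ± 4.75% in the obesity group (SD, n = 4). Cpsf2 used its last site, chr6:125898863-125898874, for 17.5 ± 8.48% and 19.9 ± 7.44%, and otherwise the site 2783 bases upstream, chr6:125896053-125896091, with 82.7% of its reads. Cstf2t used chr1:249576779-249576789 for 19.3 ± 5.08% and 14.4 ± 12.9%, and its main site chr1:249575283-249575310 for the rest. The last site had 0 of 25 reads in obesity library 3, which allows up to 12% by the limit of 3 reads and 13.3% by the 95% Wilson limit. Pcf11 used chr1:157471347-157471371 for 10.7 ± 5.09% and 14.0 ± 14.7%, with 34.7% in obesity library 4 (26 of 75 reads, 95% Wilson interval 24.9% to 45.9%). In these 4 genes the groups overlapped and no group stood apart.

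The largest difference of means was that of Cstf3, whose last site, chr3:94599937-94599943, took 100%, 77.8%, 27.3% and 23.5% of reads in controls 1 to 4 and 0%, 50%, 9.68% and 69.2% in obesity rats 1 to 4. Both groups ran over most of the possible range, on 3 to 62 reads per library, and the means of 57.1 ± 37.8% and 32.2 ± 32.8% (SD, n = 4) gave a 2-sided exact permutation p of 0.343. In obesity library 3, 56 of 62 reads lay at the upstream site, chr3:94557963-94557991, 41952 bases before the last (90.3%, 95% Wilson interval 80.5% to 95.5%). Over the 9 members 0 had groups that did not overlap, where 3.05% of 7802 genes did, and the lowest unadjusted p was that of Cstf3. The smallest p this test can give is 0.0286.

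Beside the members, the mean share of reads at the most 3′ site over 7802 genes was 32.3%, 32.3%, 34.7% and 32.3% in controls 1 to 4 and 29.6%, 33.0%, 29.7% and 29.4% in obesity rats 1 to 4. Obesity libraries 1, 3 and 4 lay below every control library, and obesity library 2 lay above 3 of them. The group means were 32.9 ± 1.21% and 30.4 ± 1.72% (SD, n = 4), a difference of -2.47 percentage points (2-sided exact permutation p 0.114), and obesity was below control in 3 of 4 library numbers. Without obesity library 2 the difference was -3.33 points (exact permutation p 0.0286, the smallest possible for 4 against 3), and without any other library between -2.68 and -1.87. As a mean that gives each gene the same weight, the index was lower, 24.6 ± 1.25% and 22.7 ± 1.35%, over the 4014 genes with a mean of at least 50 reads per library. It was the same to within 0.01 points of difference without the members. Control library 3 and obesity library 2, the highest of their groups in the index, were also the highest of their groups in the sums of oligodendrocyte markers (20014 and 18011 CPM), astrocyte markers (2294 and 1830 CPM), microglia markers (112 and 92.8 CPM) and thalamus markers (110 and 101 CPM), and in mitochondrial share (8.27% and 6.99%). They were not the highest of their groups in neuron markers (2269 and 1909 CPM) or hypothalamus markers (1335 and 1030 CPM). The oligodendrocyte sums were mostly Mbp (15642 and 14152 CPM), and single markers did not all follow the sums. Control library 3 was the lowest control in Mog of the oligodendrocyte list (67.7 CPM). It was the lowest of all libraries in Aqp4 of the astrocyte list (7.76 CPM). Endothelium markers were at 65.6 CPM in control library 3, the highest control, and 33.7 CPM in obesity library 2, the lowest of all libraries. Anterior pituitary markers were at 15.5 CPM in the first and 107 CPM in the second, and choroid plexus markers at 0.705 and 0 CPM. Their part in the index was not tested.

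**Figure D4:**
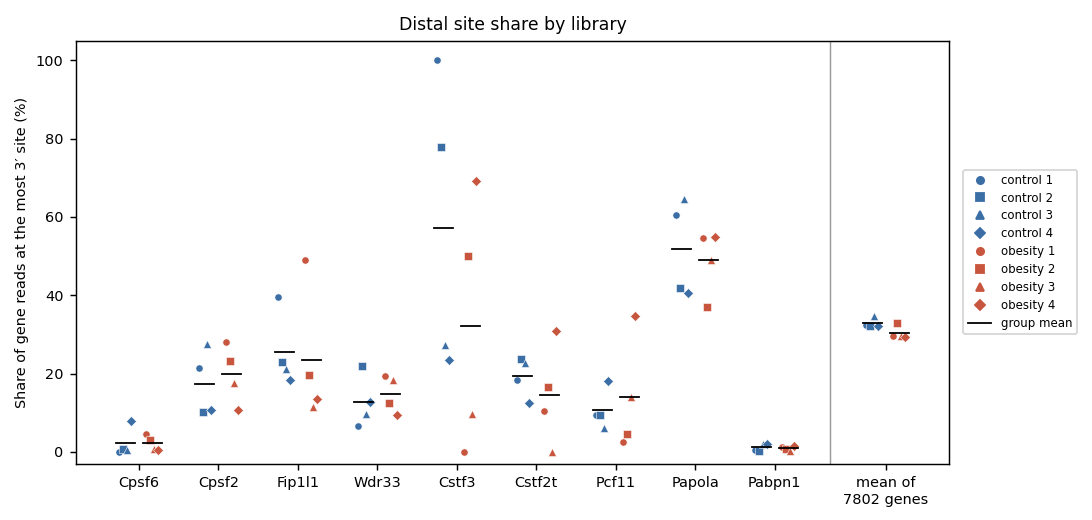
Percent of reads at the most 3′ site of each gene for the 9 members with more than 1 site, and the mean of that share over 7802 genes at the right, with 1 point per library (control blue, obesity red, shapes for library numbers) and black group means. The groups overlap for every member, and at the right obesity libraries 1, 3 and 4 lie at 29.4% to 29.7%, below the controls.

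Levels of 3 members that act on site choice are given beside this index, from its highest library to its lowest, which were control 3, obesity 2, controls 1, 2 and 4, and obesity 3, 1 and 4. In that order Nudt21 was at 5.69, 3.25, 9.21, 6.69, 1.52, 2.34, 7.51 and 5.44 CPM. Pcf11 was at 79.7, 52.0, 22.7, 78.3, 38.0, 37.5, 30.8 and 51.0 CPM, and Pabpn1 at 332, 373, 413, 361, 537, 347, 391 and 337 CPM. The lowest Pcf11 value, the highest Pabpn1 and Nudt21 values and the lowest Nudt21 value were in controls 1 and 4, in the middle of the order. The highest Pcf11 value (79.7 CPM) and the lowest Pabpn1 value (332 CPM) were in control 3, at its top. The part of these levels in the index was not tested. As the 8 index values fell into separate clusters, no correlation is given.

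Control and obesity libraries with the same number deviated together. Deviations of the 53 member sites from the group means correlated at 0.372, 0.522, 0.217 and 0.297 between the control and obesity libraries numbered 1, 2, 3 and 4, and at 0.241 to 0.346 over all sites, while different numbers gave -0.195 to -0.032 over all sites. At the 53 member sites alone different numbers gave -0.336 to 0.245, a range that holds the value of number 3. The labels do not say what a shared number stands for. At the 25 member sites with a mean of at least 10 reads per library, the number took a median of 67.0% of the sum of squares of log2 CPM and the diet 5.88%, beside 56.4% and 8.98% over 25628 sites of all genes. The number has 3 of the 7 degrees of freedom and the diet 1. Examples were the Cpsf6 site chr7:60384006-60384036, with 47 and 30 reads in the libraries numbered 2 and 1 to 10 in the others, and the sixth Fip1l1 site, at 0 in both libraries numbered 1. Fitting the number as a block left 0 of 10 members at an unadjusted p under 0.05, where 10.9% of genes were.

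Cpsf6 differed from the other members in what followed its last site. On the same strand, 10 sites with no gene assigned lay 6181 to 22509 bases further 3′, with 1356 reads in all beside the 1789 assigned to Cpsf6. The search ran up to 25000 bases and stopped earlier at the next site with a gene on that strand. Within that stretch no other member had any such site, and 9.15% of all genes had at least 1 and 0.122% had at least 10. The length searched therefore differed between genes, and its part in these shares was not tested. The farthest, chr7:60361421-60361433, held 424 reads, and RefSeq gives Cpsf6 a length of 89260 bases in the GRCr8 build, whose coordinates cannot be set against these. Whether these ends belong to Cpsf6 was not tested. With their reads added, the log2 fold change of Cpsf6 was -0.02 (edgeR adjusted p 0.995, SE 0.20). This count was made after the values were seen.

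**Figure D5:**
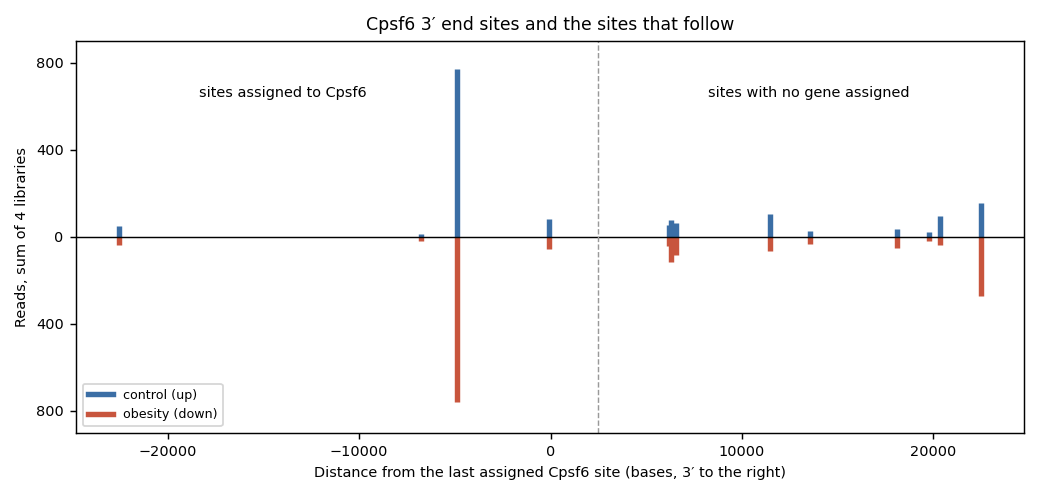
Reads at Cpsf6 sites and at the sites with no gene that follow it on the same strand, by distance in bases from the last assigned site, control upward in blue and obesity downward in red, each summed over 4 libraries with sites within 100 bases joined. The main pair holds 771 control and 760 obesity reads, and the farthest site 153 and 271.

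Among those 10 sites, chr7:60363588-60363601 had 26, 20, 16 and 32 reads in controls 1 to 4 and 5, 5, 17 and 13 in obesity rats 1 to 4. Scaled to library size it was 14.7 ± 4.46 CPM in control and 5.55 ± 2.83 in the obesity group (SD, n = 4). The groups did not overlap, as at 3.11% of all sites, and 3.14% of all sites had an unadjusted p under 0.05 by edgeR. Its log2 fold change was -1.39 (SE 0.55, unadjusted p 0.0229 and adjusted p 1.00 by edgeR, block adjusted p 0.614). In the symbol field this site has a note on a test, not a gene symbol, and it was named after its values were seen. The farthest site had 66, 35, 24 and 28 reads in control and 112, 26, 83 and 50 in obesity rats 1 to 4, a log2 fold change of 0.70 (SE 0.45).

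Further genes of the pathway were described by 2 lists. Of 28 other genes of cleavage, tail synthesis, termination and site choice, 26 were in the table, with 13 above control and 13 below in the fitted difference, a median of 0.03, and 0 past an adjusted p of 0.1. At an unadjusted p under 0.05 there was 1 gene of 26, beside 5.12% of all genes, and none without control library 2, 3 or 4 or obesity library 1 or 4. It was Ppp1cb, a catalytic subunit gene of protein phosphatase 1, a phosphatase that joins the machinery. It had 89.2, 120, 103 and 103 CPM in controls 1 to 4 and 51.8, 88.5, 81.4 and 64.0 CPM in obesity rats 1 to 4. All obesity libraries lay below the control libraries, the highest of them just under the lowest control. The log2 fold change was -0.54 (SE 0.24, unadjusted p 0.041, edgeR adjusted p 0.921).

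Of the 26 genes of cytoplasmic tail binding and shortening, 20 were in the table, 10 above control and 10 below, with a median of 0.03 and 0 past the adjusted threshold. At an unadjusted p under 0.05 were 2 of 20, beside 5.12% of all genes: Pabpc1 and Pabpc4, which encode poly(A) binding proteins of the cytoplasm. The count was 1 with filterByExpr, DESeq2 or its size factors, and 0 without control library 1, control library 3 or obesity library 3. Pabpc1 had 51.7, 40.1, 66.6 and 36.5 CPM in controls 1 to 4 and 19.5, 43.0, 18.2 and 31.3 CPM in obesity rats 1 to 4. Obesity library 2 lay within the control range and the other 3 below it. The log2 fold change was -0.80 (SE 0.35, unadjusted p 0.036, edgeR adjusted p 0.921). Pabpc4 had 70.1, 33.5, 35.8 and 28.1 CPM in control and 30.8, 18.7, 26.4 and 21.8 CPM in obesity, each obesity library below the control library of its number, with a log2 fold change of -0.78 (SE 0.36, unadjusted p 0.0464, edgeR adjusted p 0.921). Without control library 1, its highest, the value was -0.41 (unadjusted p 0.277 by edgeR). These 2 genes have close paralogs and processed copies, and how reads with more than 1 match were counted is not given in the sources used here. Pabpn1, the nuclear protein gene, had its log2 fold change of -0.18 beside these.

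As a description of pattern alone, the genes most like 3 members over the 8 libraries were listed by Pearson's r of log2 CPM, among about 6137 genes with a mean of at least 20 CPM. Pcf11 was closest to Sms at 0.973, Ufsp1 at 0.960 and Arfip2 at 0.925. Pabpn1 was closest to RGD1308428 at 0.948, Dnajc15 at 0.852 and Xiap at 0.839, and Nudt21 to Abl2 at 0.894, Plch2 at 0.884 and Fads2 at 0.873. Between the members themselves r had a median of 0.10 over 45 pairs and a range from -0.78 to 0.79. The genes listed above are the highest of many, and no median over all gene pairs was taken to set beside that of the members. Nudt21 had only 2 to 13 reads per library.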

How the data were processed

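WTTS-seq libraries of the hypothalamus of 8 rats, 4 control and 4 with diet-induced obesity, were read from 1 deposited table. It held raw counts of mapped reads per polyadenylation site, without normalization by the authors. Bowtie2 2.2.3 and the Rnor_6.0 assembly are named in the submitters' processing notes. How sites were clustered and assigned to genes is not given in the sources used here. A line without a site, with a total of 1710888, equal to the read total of control library 1, entered no library size or test. Amplified reads carried no molecular identifiers, so intervals and limits at 0 reads cover counting error only, and priming within A-rich RNA can add false ends. No genome of the build was used, so sites were not classed and no sequence is printed.

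Site counts were summed per gene identifier on the strand with most reads. Gene sums and sites were tested with edgeR 4.0.16 (quasi-likelihood, robust, TMM scaling) in R 4.3.3, site usage with diffSpliceDGE, all adjusted by Benjamini-Hochberg over all features, at an adjusted p of 0.1. CPM of a site are scaled to all reads and CPM of a gene to the gene sums. Distal shares were compared by 2-sided exact permutation over 70 arrangements of the libraries. The members and lists were chosen with earlier results of these data known. All 10 members are named, with each one's most read and most 3′ site, sites at an unadjusted p under 0.05 or with groups that did not overlap, list genes at an unadjusted p under 0.05, and Cstf2 and Cpsf7 as paralogs. Other names were chosen after their values were seen. The numbers 1 to 4 were taken to pair the libraries, since deviations from the group means correlated above 0.1 in each of the 4 numbers, at 0.241 to 0.346 over all sites. The reported fit has no block. Alternatives were DESeq2 1.42.0, its size factors, filterByExpr, both strands, the block, each library left out, a 5% minimum share for the last site and a minimum of 50 reads for the index. The scripts were tested on simulated data, with planted changes larger than the fitted member differences and no effect shared by libraries of the same number. That test does not bear on differences of the size fitted for the members.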

Additional observations from a re-analysis of the deposited data

Results flagged for a closer look

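In groups of 4 libraries, 66 sets of values were searched for a library far from the other 3 of its group, and 4 were found, where about 1 in 20 sets would be by chance. The mean distal share over all genes was 34.7% in control library 3, against 32.3% in each of the other control libraries, and 33.0% in obesity library 2, against 29.4% to 29.7% in the other obesity libraries. The Cpsf6 share at its last assigned site was 7.80% in control library 4 (16 of 205 reads, 95% Wilson interval 4.86% to 12.3%), against 0% to 0.855% in the other controls. The summed level of the 10 members was 789 CPM in obesity library 1, against 942 to 973 CPM in the other obesity libraries. That library was also the lowest of the 8 in oligodendrocyte (10253 CPM), hypothalamus (763 CPM), microglia (26.2 CPM) and thalamus (26.2 CPM) marker sums. It was the highest of the 8 in endothelium markers (83.1 CPM) and the highest obesity library in neuron markers (2162 CPM). Its astrocyte markers were at 1268 CPM, with obesity library 4 lower at 1240 CPM. It had 10659 sites at 0 reads. Its oligodendrocyte sum was mostly Mbp (7668 CPM) and its hypothalamus sum mostly Avp (461 CPM). Not every listed marker was low there. Agrp of the hypothalamus list (29.6 CPM) and Calb2 of the thalamus list (10.8 CPM) were the highest of the 8. Mag of the oligodendrocyte list (284 CPM) was the highest of the obesity libraries. The part of these values in the level was not tested.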

How the results depend on the processing

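The counts of members, member sites, members by usage and list genes past an adjusted p of 0.1 stayed at 0 under every alternative run, and so did the count of members with groups that do not overlap in distal share. With the number as a block, 34 genes passed over the whole table and 0 members. The difference in mean distal share was -2.47 points, with a paired exact sign-flip p of 0.25 (the smallest possible is 0.125) and -2.60 with the last site taken among those with at least 5% of reads. It ran from -3.33 to -1.87 when 1 library was left out. Leaving out 1 library turned the direction of some gene sums, none of them called: the log2 fold change ran from -0.027 to 0.31 for Cpsf2, -0.21 to 0.0080 for Cpsf6, -0.12 to 0.076 for Fip1l1, -0.062 to 0.16 for Wdr33, -0.73 to 0.74 for Cstf3, -0.64 to 0.052 for Cstf2t, -0.34 to 0.34 for Cstf2 and -0.0023 to 0.30 for Cpsf7. Without a change of direction it ran from -0.65 to -0.0088 for Nudt21, -0.27 to -0.027 for Pabpn1, -0.44 to -0.13 for Papola and -0.61 to -0.11 for Pcf11. The cause was not tested. For Cstf3, obesity library 3 holds 62 of 145 reads. Of the other alternatives none turned the direction of a member. Nudt21 was removed by filterByExpr and has no value there. Cpsf6 with the sites 3′ of it was added after seeing the data. Depth limits Nudt21, Cstf3 and Cstf2t most, with 2 to 13, 3 to 62 and 13 to 55 reads per library.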

Other observations

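Genes of the 2 pathway lists that the rule did not name are given here because their groups did not overlap or the block moved them. Scaf4, which encodes a protein that limits use of early sites, had 95.6 to 114 CPM in control and 116 to 163 CPM in obesity, with a log2 fold change of 0.32 (edgeR adjusted p 0.942, SE 0.21). Paip2, whose protein holds cytoplasmic poly(A) binding protein off the tail, had 117 to 130 CPM in control and 83.0 to 104 CPM in obesity, with a log2 fold change of -0.32 (edgeR adjusted p 0.939, SE 0.21). With Ppp1cb these were the genes of the lists without overlap, 2 of 26 and 1 of 20, beside 3.45% of all genes. Cstf1, the remaining subunit gene of the cleavage stimulation factor, had 5.67, 0, 7.32 and 4.56 CPM in control libraries 1 to 4 and 25.5, 4.87, 8.79 and 11.6 CPM in obesity libraries 1 to 4. It was above the control library of its number in 4 of 4, with a log2 fold change of 1.53 (edgeR adjusted p 0.921, SE 0.79) and 1.62 with the block (edgeR adjusted p 0.376), on 95 reads in all. These genes were chosen after their values were seen.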
